A study of Rattus norvegicus with 244 samples.

Results

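Cholesterol and fatty acid synthesis genes were followed in 2 rat brain regions after spinal cord injury: Hmgcs1, Idi1, Fdps, Fdft1, Sqle, Cyp51 and Dhcr7 of the cholesterol pathway, and Scd2, a fatty acid desaturase. Probe sets annotated to one of these symbols alone were taken from 3 array types, called A, B and C, and the one with the highest mean signal stood for the gene, with the others as a check. This gave 30 probe sets for 7 of the 8 genes, out of 26202 probe sets and 10969 genes with a single symbol. No probe set was annotated to Hmgcs1, which is not analysed here.

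Both brain regions send axons down the spinal cord and were measured, on 244 arrays from 84 samples: the raphe of the brainstem, with its serotonin neurons, and the somatomotor cortex, the source of corticospinal axons. Rats with a moderate injury gave 24 samples per region, 4 per time (4 h, 24 h, 7 d, 14 d, 28 d or 3 months). Sham rats gave 12 samples per region, 2 per time (on type A in the raphe 11, with 1 at 3 months), and naive rats gave 4 (on type C in the raphe 3). The sham operation was a laminectomy for the raphe and was called only sham surgery for the cortex. Sham samples at 30 min and 72 h had no injured counterpart and entered no comparison with injured samples. Neither strain, age, the level of the lesion nor the number of animals behind a sample is given in the labels. Injured raphe samples carry another source name (raphe) than sham and naive ones (raphe magnus), so dissection and injury cannot be told apart there. Whether replicates were separate animals is not stated either, so p-values measure only the spread between these samples. These were bulk tissue samples, in which fewer cells of a type and less RNA per cell cannot be told apart.

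Cholesterol is made from acetyl-CoA through mevalonate and isoprenoid units. Hmgcs1 catalyses an early step of mevalonate synthesis, Idi1 interconverts the isoprene building blocks, Fdps joins them to farnesyl diphosphate, and Fdft1 condenses farnesyl diphosphate to squalene. Sqle epoxidises squalene, Cyp51 removes a methyl group from lanosterol, and Dhcr7 catalyses a last step to cholesterol. Scd2 introduces a double bond into saturated fatty acids and is abundant in rodent brain. The genes of this pathway are switched on together by SREBP transcription factors when sterols are low, usually with NF-Y and Sp1 bound nearby. Brain cholesterol is made locally, because lipoproteins do not cross the blood-brain barrier, and most of it lies in myelin.

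Some of the genes that the results turn on are shown here by the 200 bases before their annotated start site, since these stretches are where the shared regulators of the pathway could bind. They are RefSeq sequences of the rat build GRCr8, written 5′ to 3′ on the strand of the gene, with CCAAT (the NF-Y motif) and GGGCGG (the GC box bound by Sp1) in capitals on either strand. The windows are chr17:66547525-66547724 (minus strand) for Idi1, chr2:176804817-176805016 (minus) for Fdps, chr4:30991493-30991692 (plus) for Cyp51 and chr1:253118177-253118376 (plus) for Scd2.
Idi1: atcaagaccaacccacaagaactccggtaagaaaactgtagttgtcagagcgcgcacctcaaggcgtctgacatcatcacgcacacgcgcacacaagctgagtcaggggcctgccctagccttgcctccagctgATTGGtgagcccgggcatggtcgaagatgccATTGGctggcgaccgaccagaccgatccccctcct
Fdps: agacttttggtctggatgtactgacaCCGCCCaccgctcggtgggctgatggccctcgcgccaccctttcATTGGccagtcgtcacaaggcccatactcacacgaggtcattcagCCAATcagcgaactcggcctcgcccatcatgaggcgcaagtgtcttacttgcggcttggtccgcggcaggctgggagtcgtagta
Cyp51: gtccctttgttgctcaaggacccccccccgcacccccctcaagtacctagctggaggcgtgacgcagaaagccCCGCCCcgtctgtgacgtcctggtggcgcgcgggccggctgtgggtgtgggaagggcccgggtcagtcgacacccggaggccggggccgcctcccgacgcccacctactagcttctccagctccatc
Scd2: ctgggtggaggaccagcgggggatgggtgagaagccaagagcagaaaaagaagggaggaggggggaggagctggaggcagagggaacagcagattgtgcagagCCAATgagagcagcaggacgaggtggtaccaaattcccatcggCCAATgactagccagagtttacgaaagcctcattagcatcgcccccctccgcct
In Scd2, CCAAT starts at bases -97 and -54 counted from the start site. Idi1 holds its reverse complement at -66 and -35, and Fdps holds one copy in each direction, at -130 and -85. Of the 6 genes with a window (Hmgcs1, Idi1, Fdps, Cyp51, Dhcr7 and Scd2; Fdft1 and Sqle had no entry), 4 held CCAAT and 4 held GGGCGG, against 29.2% and 28.6% of 33469 windows of this length. TCACNCCAC, a form of the sterol regulatory element, was found in 0 of 6 and in 0.78% of all windows. A match of letters is not a binding site, and no match says only that these letters are absent from the window.

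The labelled regions were checked against marker genes. All 8 tested forebrain cortex markers were lower in naive raphe than in naive cortex, and 7 of 10 brainstem and raphe markers were higher. Of 84 samples, 5 stood apart, by rules set after seeing the data. The first was replicate 1 of injured raphe at 4 h, whose ratio of 3′ to 5′ actin signal was 56.2, against 1.25 to 2.60 in the raphe samples that did not stand apart. A score of region-specific probe sets was set to 0 at the naive cortex mean and 1 at the naive raphe mean. On it, replicate 1 of the raphe sham samples at 3 months came to 0.06, and replicate 1 of the cortex sham samples at 3 months to 0.66. The remaining raphe samples had 0.90 to 1.02 and the remaining cortex samples -0.016 to 0.077. These checks are means over the arrays of a sample, so single arrays can differ from them. Injured cortex at 7 d (replicate 2) had a 5th signal percentile of 32.2 and sham cortex at 14 d (replicate 2) one of 56.0, where the remaining cortex samples had 10.04 to 19.6. Calls on the brightest probe sets of the 7 genes that changed without these 5 samples are given with and without them. For the other probe sets this is done only in part.

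The clearest pattern was a difference between the regions. Cholesterol genes had more signal in raphe than in cortex, with or without an operation, though in naive rats few passed the test. Sqle, Cyp51 and Fdps had the largest differences in naive and in sham rats, and Cyp51, Sqle and Idi1 in injured rats. In injured rats 6 of 7 genes were higher in raphe, in sham rats 5 of 7, and in naive rats 2 of 7, where the sign was the same for all 7. Scd2, measured by its brightest probe set, was not called in any of these comparisons. Differences were large over the whole arrays as well: 48.2% of 19453 probe sets differed between injured raphe and injured cortex (24.3% higher in raphe, 24% lower), 32.7% between the sham groups (15.7% higher, 16.9% lower) and 14.2% between the naive groups (6.65% higher, 7.59% lower). The median difference of the 7 genes was 0.44 on the log2 scale in injured rats, 0.59 in sham rats and 0.61 in naive rats, against medians of all probe sets of -0.01, -0.02 and -0.00. Without the 5 samples that stood apart, 6 of 7 genes were called in injured rats (53.5% of all probe sets), 4 of 7 in sham rats (39%) and 3 of 7 in naive rats (20.5%). The medians of the 7 genes were then 0.60, 0.64 and 0.61. Differences here are of log2(signal + 32) with their standard error, from limma, and adjusted p-values are Benjamini-Hochberg values over all probe sets, called at 0.05.

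Idi1 signal in raphe had a lowest value of 151, a median of 922 and a highest value of 1384 over 24 injured samples, against 241, 610 and 696 in injured cortex. All but 2 of the injured raphe samples lay above the highest injured cortex sample. The difference was 0.61 ± 0.12 in injured rats (adjusted p = 1.6e-05, 23 of 24 raphe samples above the cortex mean of the same time). In sham rats it was 0.23 ± 0.17 (adjusted p = 0.338) and in naive rats 0.47 ± 0.29 (adjusted p = 0.318). Without the 5 samples the injured difference was 0.70 ± 0.09.

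Fdps, the source of the farnesyl group for sterols and for protein prenylation, had signals of 3793, 3536, 3794 and 5140 in the 4 naive raphe samples, against 2195, 2346, 2157 and 2783 in the 4 naive cortex samples. These groups did not overlap, but the fit, in which all groups share a spread, gave 0.76 ± 0.42 with an adjusted p of 0.254. In sham rats the difference was 0.98 ± 0.25 (adjusted p = 0.0016, 11 of 11 raphe samples), and in injured rats 0.44 ± 0.17 (adjusted p = 0.029, 22 of 24). Without the 5 samples the naive difference had an adjusted p of 2.3e-06, and 35 of 38 raphe samples lay above the highest of 37 cortex samples, against 4 of 39 with them. The injured difference without them was 0.60 ± 0.05.

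Fdft1, squalene synthase, had signals of 5929, 7343 and 6432 in naive raphe, against 4671, 3736, 4741 and 5327 in naive cortex. Every naive raphe sample lay above every naive cortex sample. The difference was 0.51 ± 0.15 (adjusted p = 0.0096, 3 of 3; 0.065 without cortex naive replicate 2 and 0.080 without raphe naive replicate 3), with 0.51 ± 0.08 in sham rats (adjusted p = 2.3e-07, 11 of 12) and 0.34 ± 0.05 in injured rats (adjusted p = 4.5e-07, 22 of 24).

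Sqle, the squalene epoxidase that is a control point of the pathway, separated the regions most cleanly on its brightest set, on type A. Its signals were 2976, 2379, 2231 and 2396 in naive raphe, against 1191, 1278, 1085 and 946 in naive cortex. Injured raphe had a lowest signal of 171, a median of 2894 and a highest of 3910, against 924, 1506 and 1898 in injured cortex, and sham raphe had 1961, 2623 and 3323, against 959, 1344 and 2111 in sham cortex. Without the 5 samples, 38 of 38 raphe samples lay above the highest of 37 cortex samples, and with them 34 of 39. The difference was 1.13 ± 0.35 in naive rats (2.19-fold, adjusted p = 0.021, 4 of 4), 0.84 ± 0.21 in sham rats (1.795-fold, adjusted p = 0.0012, 11 of 11) and 0.87 ± 0.14 in injured rats (1.83-fold, adjusted p = 6.5e-07, 23 of 24). The naive difference missed the threshold without cortex naive replicate 4 (adjusted p = 0.062) or raphe naive replicate 1 (0.063). Without the 5 samples the injured difference was 1.04 ± 0.06. On the dimmer type C set of Sqle the regions overlapped in all 3 conditions. Its medians in raphe and cortex were 498 and 330 in injured, 307 and 266 in sham, and 587 and 393 in naive rats. The naive difference on that set was 0.60 (adjusted p = 0.233).

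Cyp51, the lanosterol demethylase, had signals of 2793, 4972, 3864 and 4099 in naive raphe, against 1875, 2405, 1387 and 2361 in naive cortex. The 2 groups did not overlap, and the naive difference of 0.96 ± 0.37 missed the threshold (adjusted p = 0.076, or 0.058 without the 5 samples). Injured rats showed 1.06 ± 0.15 (2.09-fold, adjusted p = 2.5e-08, 24 of 24) and sham rats 0.79 ± 0.22 (adjusted p = 0.0044, 10 of 11).

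Dhcr7, which makes cholesterol from its last precursor, had signals of 1434, 1418, 507 and 982 in naive raphe, against 241, 1070, 738 and 893 in naive cortex, and these ranges overlapped. The difference was 0.61 ± 0.37 in naive rats (adjusted p = 0.312), 0.59 ± 0.22 in sham rats (adjusted p = 0.033, 11 of 11; 0.054 without the 5 samples) and 0.39 ± 0.15 in injured rats (adjusted p = 0.029, 19 of 24). Of 84 fits that left out 1 sample each, 76 kept the sham call and 79 the injured call.

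Scd2 had signals of 17792, 17537 and 20769 in naive raphe, against 16484, 18470, 11326 and 16865 in naive cortex. Its brightest probe set overlapped between the regions in all 3 conditions. The differences were 0.26 ± 0.42 in naive, 0.11 ± 0.23 in sham and -0.21 ± 0.16 in injured rats, with adjusted p-values of 0.770, 0.752 and 0.285. Without the 5 samples the injured difference was -0.05 ± 0.10.

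**Figure D1:**
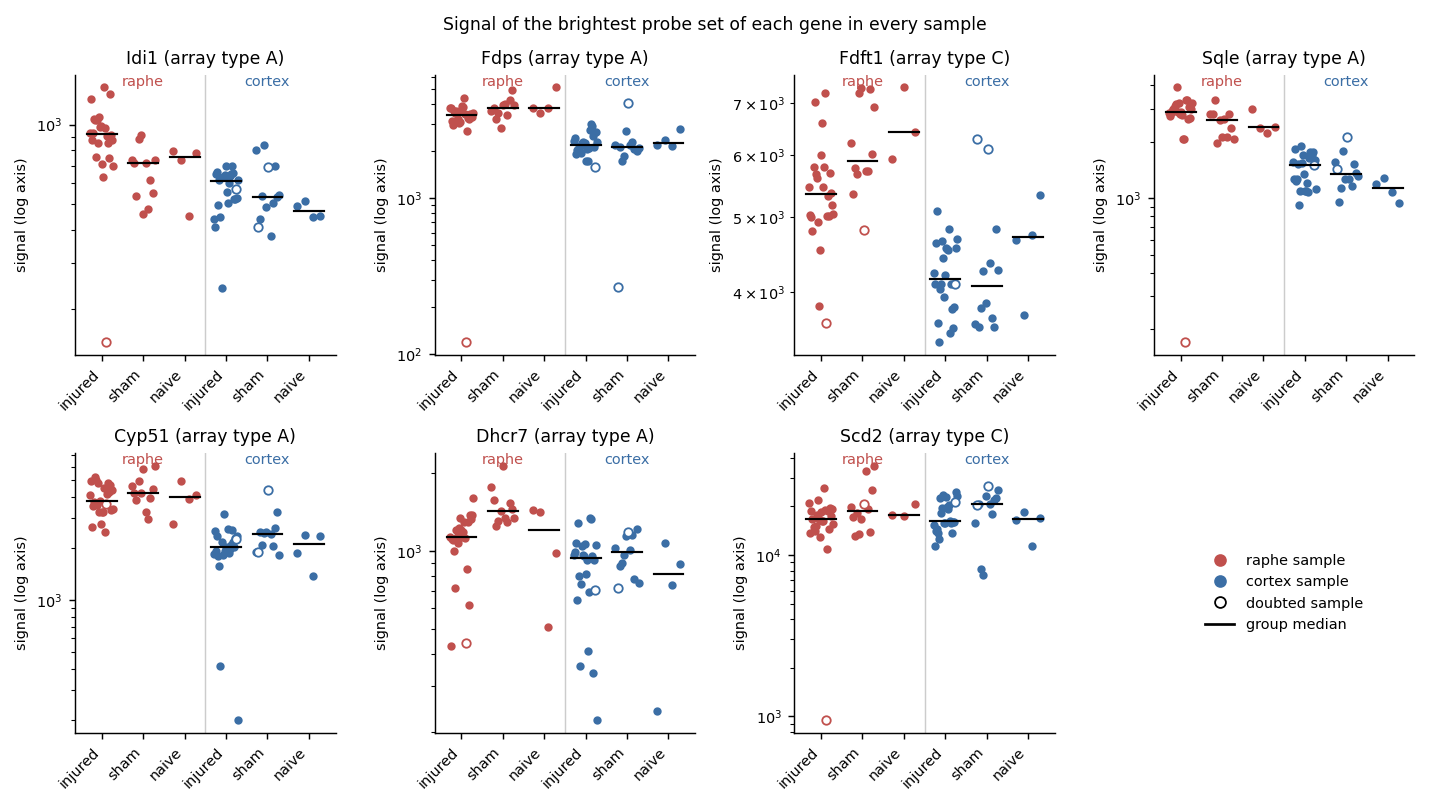
Signal of the brightest probe set of each gene (vertical log axis, linear array signal, own range per panel) in injured, sham and naive samples of raphe and of cortex, with 1 point per sample. Sqle, Cyp51, Fdps and Fdft1 sit higher in raphe, while single low points, such as Sqle at 171 and Fdps at 120 in injured raphe, belong to 1 sample.

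**Figure D2:**
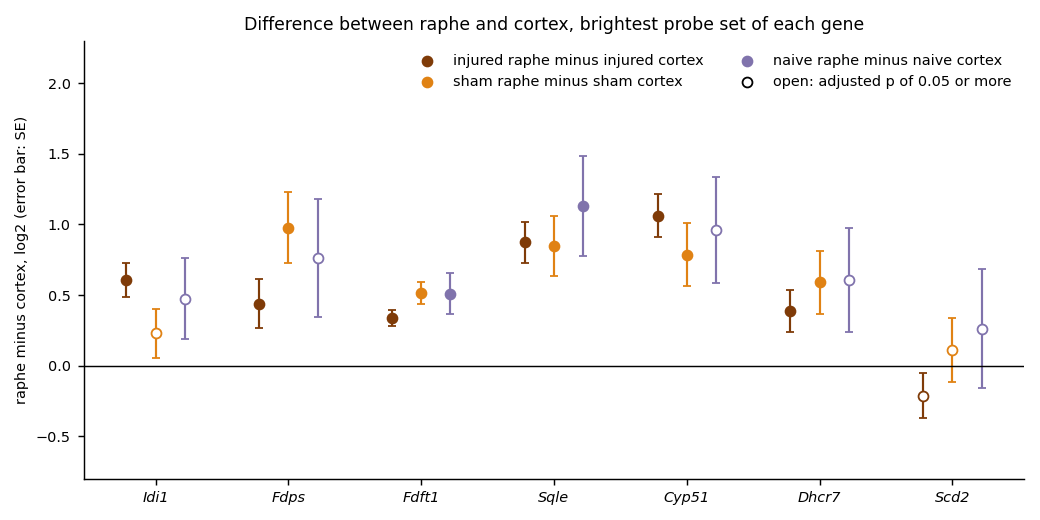
Log2 difference, raphe minus cortex, for each gene in injured, sham and naive rats, with bars of 1 standard error from limma. All points lie above 0 except Scd2 in injured rats at -0.21, a value that was -0.05 without the 5 samples that stood apart.

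Among the 26 groups of region, treatment and time, raphe groups took 12 of the 13 highest mean levels for Sqle, Cyp51 and Fdps, 11 for Fdft1 and Idi1, 10 for Dhcr7 and 6 for Scd2.

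The other probe sets of the same genes gave the same direction with few exceptions. Between injured raphe and injured cortex, 21 of 21 tested ones had a difference above 0 and 16 were called. Between sham groups 8 were called, and between naive groups 3, with 20 of 21 above 0. All these calls were higher in raphe. Over all probe sets 48.2% were called in injured, 32.7% in sham and 14.2% in naive rats (24.3%, 15.7% and 6.65% higher in raphe). In the naive comparison the 3 were the second probe set of Dhcr7 (0.90 ± 0.29, adjusted p = 0.026), the second of Fdps (0.82 ± 0.27, adjusted p = 0.032) and the third-brightest of Fdft1 (0.90 ± 0.13, adjusted p = 2.5e-07). Probe sets of Scd2 disagreed with its brightest one: in injured rats the type B set gave 1.07 ± 0.20 (adjusted p = 7.2e-06) and a type A set 0.89 ± 0.17 (adjusted p = 1.5e-05), against -0.21 for the brightest, so the region difference of Scd2 depends on the probe set. The type C set of Idi1 also differed, with -0.59 ± 0.52 in naive rats (adjusted p = 0.537) and 1.11 ± 0.19 in injured rats (adjusted p = 2.5e-06).

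**Figure D3:**
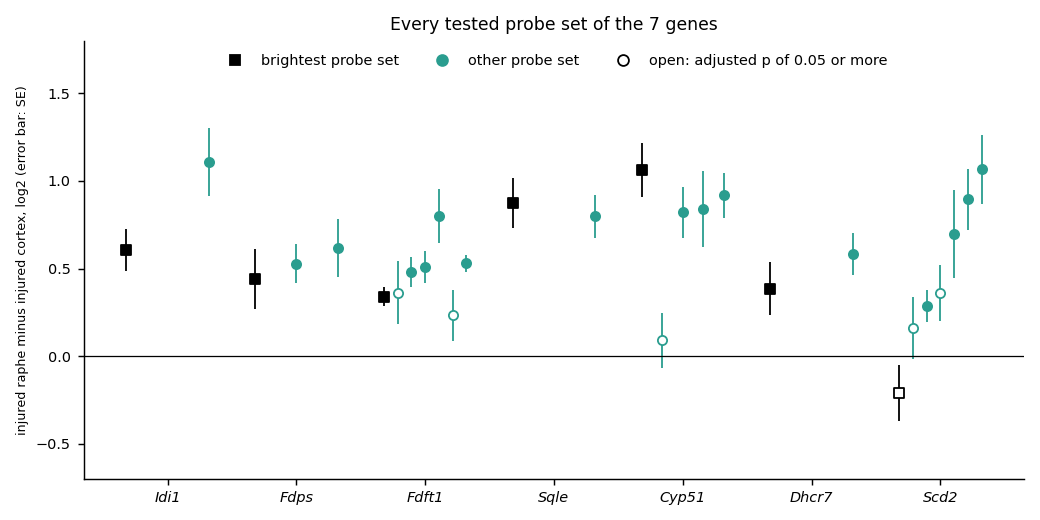
Log2 difference, injured raphe minus injured cortex, for every tested probe set of each gene, with squares for the brightest set, circles for the others, open symbols where the adjusted p was 0.05 or more, and bars of 1 standard error. The Scd2 sets spread from -0.21 to 1.07, and among those of Cyp51 one set at 0.09 stands apart from the others between 0.82 and 1.06.

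Neighbouring lipid genes, from lists chosen with earlier results of these data known, were read the same way. Of 12 tested other cholesterol synthesis genes, 4 were higher in naive raphe, 10 in injured raphe and 7 in sham raphe, and 0 were lower, with median differences of 0.52, 0.31 and 0.36. Over all probe sets 6.65% were higher in naive, 24.3% in injured and 15.7% in sham raphe, and the same shares stand beside the fatty acid and myelin lists. Acat2, which makes acetoacetyl-CoA, was higher by 1.02 ± 0.18 in naive rats (adjusted p = 2.3e-05), the sterol reductase Tm7sf2 by 0.90 ± 0.18 and the lanosterol synthase Lss by 0.61 ± 0.17. Of 14 tested fatty acid synthesis genes, 8 were higher in naive raphe, 12 in injured raphe and 11 in sham raphe, with 1 lower in each of the injured and sham comparisons. The fatty acid synthase Fasn was higher by 1.01 ± 0.15 (adjusted p = 3.3e-07), and the desaturase Scd, the relative of Scd2, by 1.26 ± 0.25 (adjusted p = 1.5e-04) in naive raphe.

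Genes that sense or remove sterols were called in both directions, beside 24.3% of all probe sets higher and 24% lower in injured raphe. The shares of all probe sets were 15.7% higher and 16.9% lower in sham raphe, and 6.65% and 7.59% in naive raphe. Of 8 sensing and uptake genes, 2 were higher and 3 lower in injured raphe, 1 was higher and 2 lower in sham raphe, and 1 was higher in naive raphe. Npc2, which carries cholesterol out of lysosomes, was higher by 0.88 ± 0.05 in injured raphe (adjusted p = 3.2e-21), and Srebf2, the SREBP that drives the cholesterol genes, was lower, at -0.36 ± 0.07 (adjusted p = 2.9e-05). Of 10 export and turnover genes, 1 was higher and 2 lower in injured raphe, 1 and 1 in sham raphe, and 1 lower in naive raphe. That one was Cyp46a1, the neuronal enzyme that turns cholesterol into a form that leaves the brain, at -1.12 ± 0.28 (adjusted p = 0.0028).

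Myelin markers moved with the region difference. Of 12 tested oligodendrocyte and myelin markers, 8 were higher in naive raphe, 11 in injured raphe and 11 in sham raphe, with medians of 1.03, 1.15 and 1.24, and 0 were lower. Their summed signal was 89269 to 207775 in injured raphe, against 67476 to 115675 in injured cortex, and 159411 to 181009 in naive raphe, against 93522 to 124480 in naive cortex. The dimmest of the 12 had a median signal of 340 in sham cortex, the lowest of any group, and Ugt8, a myelin lipid enzyme, was higher by 1.64 ± 0.23 in naive raphe (adjusted p = 2.0e-07). Their part in the difference of the cholesterol genes was not tested.

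After injury, 0 of the 7 genes passed the threshold in the raphe for injured against sham rats over the 6 times, where 0.946% of 18716 probe sets did. By limma 3 of 7 had an unadjusted p under 0.05, against 15.1% of all probe sets: Dhcr7, Fdft1 and Idi1. Idi1 had a positive difference, while those of Dhcr7 and Fdft1 were negative. The median over the 7 genes was -0.20, against -0.00 over all probe sets.

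Injured raphe had Idi1 signals with a lowest value of 151, a median of 922 and a highest of 1384, against 458, 713 and 916 in sham raphe and 451, 756 and 797 in naive raphe. Injured samples lay above the sham mean of their time in 21 of 24 cases, and the groups overlapped. The difference was 0.38 ± 0.18 (adjusted p = 0.310). Without the 5 samples that stood apart it was 0.48 ± 0.12 and passed the threshold (adjusted p = 0.024, against 4.73% of all probe sets), and without injured raphe at 4 h replicate 1 alone it had an adjusted p of 0.020. The type C set of Idi1 had a correlation of 0.23 with it over 37 raphe samples, and the third set, with a mean signal of 27.4, was too dim to be tested.

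Dhcr7 showed the opposite sign. Its signal had a lowest value of 428, a median of 1131 and a highest of 1597 in injured raphe, against 1249, 1427 and 2134 in sham raphe and 507, 1200 and 1434 in naive raphe. In 23 of 24 cases the injured sample lay below the sham mean of its time. The difference of -0.47 ± 0.15 had an adjusted p of 0.121, or 0.077 without the 5 samples, at -0.43. With array quality weights both Dhcr7 (-0.38, adjusted p = 0.0485) and Idi1 (0.49, adjusted p = 0.0093) were called. Fdft1 had a lowest signal of 3654, a median of 5346 and a highest of 7228 in injured raphe, against 4815, 5902 and 7322 in sham raphe, and its difference was -0.20 ± 0.07 (adjusted p = 0.160, 18 of 24). On their brightest sets both genes had their highest raphe group mean in the sham samples at 28 d. Other sets of Fdft1, none of them called, ran both ways. Medians in injured and sham raphe were 1791 and 1883 for the second-brightest. They were 1192 and 1139, 928 and 853, 600 and 521, 574 and 511, and 390 and 280 for the others. Correlations with the brightest set ran from -0.49 to 0.34 over 37 raphe samples, so the direction for Fdft1 depends on the probe set.

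The remaining genes were not called. Scd2 gave -0.38 ± 0.24, Fdps -0.33 ± 0.27, Cyp51 -0.13 ± 0.11 and Sqle 0.05 ± 0.25, with adjusted p-values from 0.482 to 0.949. Injured raphe at 4 h replicate 1 moved these values. Without it Scd2 gave -0.22 ± 0.10 (adjusted p = 0.184), Fdps -0.14 ± 0.07 (adjusted p = 0.213) and Sqle 0.22 ± 0.08 (adjusted p = 0.095), and without all 5 samples they gave -0.27, -0.14 and 0.22. Then 6 of the 7 genes had an unadjusted p under 0.05, against 21.4% of all probe sets, and 1, Idi1, was called.

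At single times 0 of 7 genes were called in the raphe, where the share of all probe sets called was 0.15% at 4 h, 0.00534% at 24 h, 0.801% at 7 d, 0.0374% at 14 d, 0% at 28 d and 0.614% at 3 months. The lowest adjusted p of any of the 7 genes was 0.267, at 4 h. At that time the lowest values of Fdps, Sqle, Idi1 and Scd2 came from 1 sample, injured raphe at 4 h replicate 1, in which Fdps was 120 (against 2682 to 3276 in the other 3 injured samples), Sqle 171 (2641 to 3337), Idi1 151 (747 to 905) and Scd2 948 (10893 to 18604). Cyp51 at 3629 (4137 to 4830) and Fdft1 at 3654 (5008 to 5319) lay closer to the other samples. Dhcr7 at 441 (618 to 1290) was lowest there too, and without this sample its difference at 4 h was -0.66 ± 0.35 (adjusted p = 0.416), against -0.89 ± 0.35 with it (adjusted p = 0.273). For Fdft1 these values were -0.34 and -0.46. Other probe sets of these genes in that sample ran both ways: a type A set of Fdft1 was 30.2 (1183 to 1799), while the type B set of Scd2 was 24888 (19554 to 21236) and a second set of Cyp51 was 3311 (1345 to 2000).

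**Figure D4:**
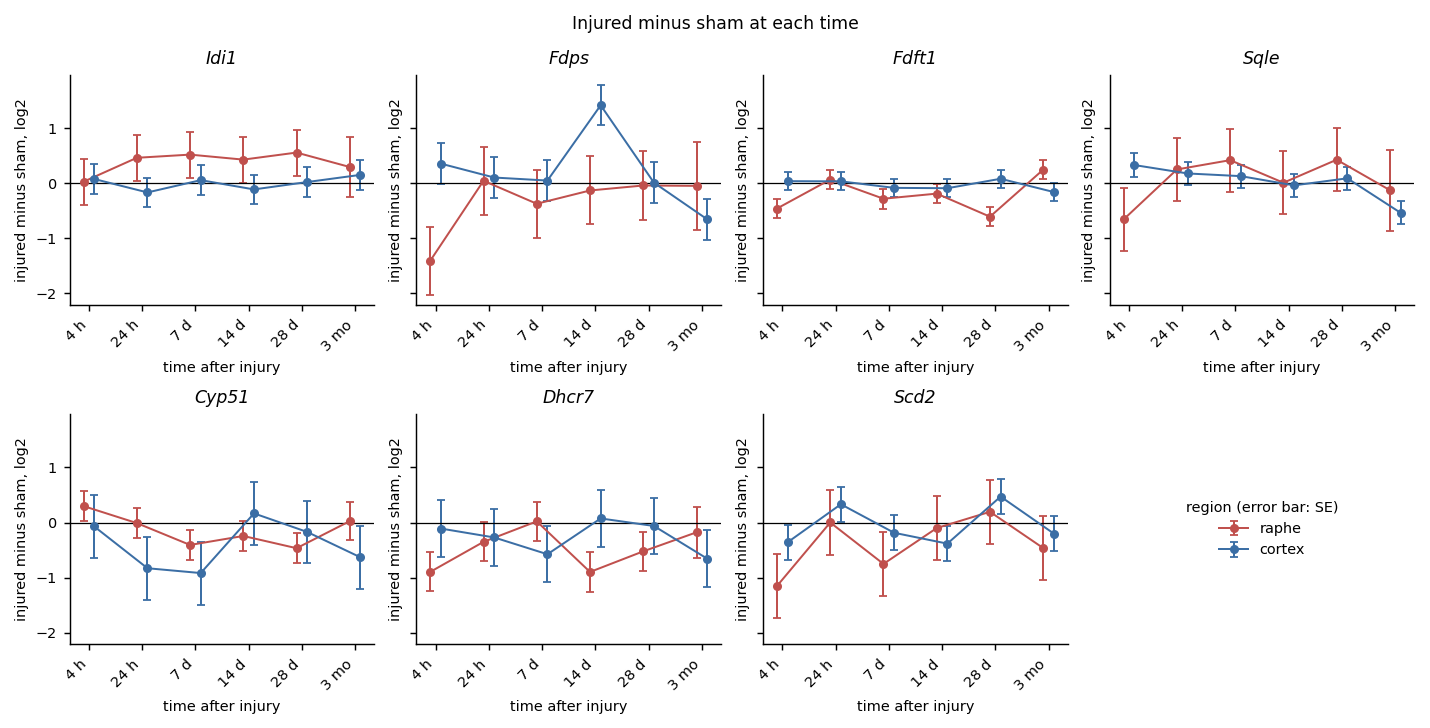
Log2 difference, injured minus sham, for each gene at 4 h, 24 h, 7 d, 14 d, 28 d and 3 months in raphe and in cortex, with bars of 1 standard error. The values of Fdps (-1.40) and Scd2 (-1.15) at 4 h in raphe and of Fdps at 14 d in cortex (1.42) each rest largely on 1 sample, while Dhcr7 at 4 h in raphe is -0.89 with that sample and -0.66 without it.

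A second probe set of Sqle, on type C and dimmer than the type A set, was the one probe set of these genes called in the raphe for injured against sham rats. Its signals in injured raphe were 181, 434, 333 and 439 at 4 h, 1096, 373, 520 and 1196 at 24 h, and 1146, 1222, 1093 and 1364 at 7 d. They were 836, 1178, 851 and 1014 at 14 d, 476, 388, 973 and 292 at 28 d, and 409, 433, 389 and 322 at 3 months. Sham raphe had 511 and 391 at 4 h, 598 and 604 at 24 h, 209 and 243 at 7 d, 363 and 242 at 14 d, 247 and 417 at 28 d, and 193 and 251 at 3 months. The 181 in injured raphe at 4 h and the 193 in sham raphe at 3 months came from samples that stood apart. Injured samples were far above sham ones at 7 d and 14 d, with no overlap, overlapped them at 4 h, 24 h and 28 d, and lay above them by less at 3 months. Naive raphe had 503, 587 and 734, between the sham and the injured samples of 7 d.

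Over the 6 times this probe set rose by 0.82 ± 0.15 in injured raphe against sham (adjusted p = 0.0078), and at 7 d by 2.26 ± 0.37 (adjusted p = 0.0024). Both stayed past the threshold in each of 41 fits that left out 1 sample, with highest adjusted p-values of 0.022 and 0.033. Of 9 other settings, only the fit with the replicate number as a block lost the call over the 6 times (adjusted p = 0.078). The call held without the 5 samples. The brighter type A set also lay higher at 7 d without overlap, with 3055, 2678, 2998 and 3219 in injured raphe, against 2381 and 2072 in sham raphe. Its difference of 0.42 was not called (adjusted p = 0.84, or 0.190 without the 5 samples, where the unadjusted p was 0.030). Over 37 raphe samples the 2 sets had a correlation of 0.31, and the call rests on the type C set alone.

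**Figure D5:**
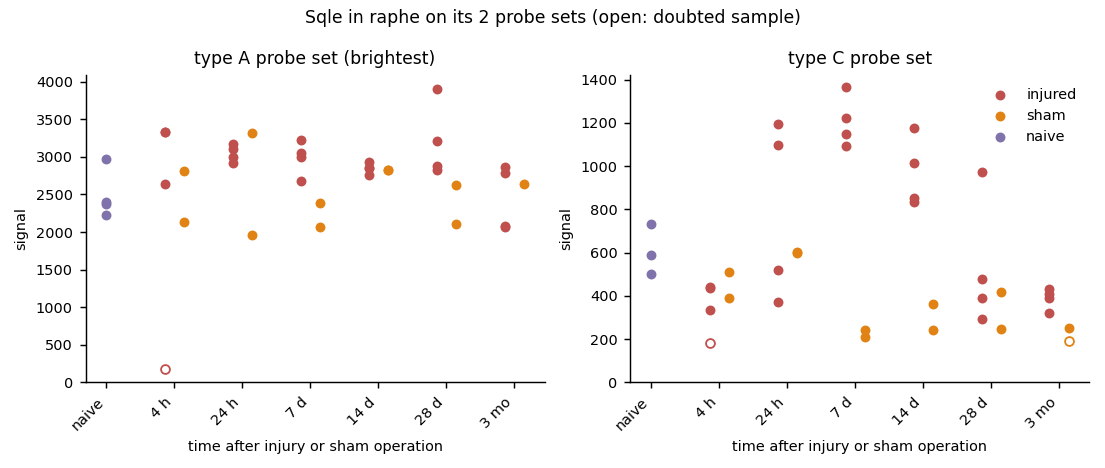
Signal of the type A and the type C probe set of Sqle in raphe (vertical axis, linear array signal) for naive samples and for injured and sham samples at each time, with 1 point per sample. The type C set in injured raphe lies between 1093 and 1364 at 7 d, above 209 and 243 in sham raphe, and the type A set shows no gap of that size.

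The type B probe set of Scd2 set operated rats apart from naive ones in the raphe. It was lower in sham than in naive raphe by a difference of -1.70 ± 0.34 (adjusted p = 0.0081, where 1.35% of probe sets were called), and stayed so in each of 41 fits without 1 sample. Naive raphe lay between 31600 and 48910. Sham samples at 14 d and 28 d lay between 4885 and 6145 and the others up to 23678, with no overlap with the naive samples. In injured against naive raphe the same set had -1.13 ± 0.32 (adjusted p = 0.044), which held in 19 of 41 such fits and in 5 of 9 other settings (highest adjusted p of 0.094, with quantile normalization). The brightest set of Scd2, on type C, gave 0.06 ± 0.43 for sham against naive (adjusted p = 0.974). Type A sets, none of them called with all samples kept, ran both ways. Without the 5 samples, 3 of the 21 other tested sets of the 7 genes were called for sham against naive raphe. Of these 1 was higher and 2 were lower, beside 1132 calls among 18511 probe sets. Medians here are over all samples. Medians in naive and sham raphe were 9139 and 2273 for one set, and 1838 and 930 for another. A further set had 11594 and 16747, and others were alike (9412 and 9515, 3806 and 3858). In cortex the type B set had medians of 22398 in naive and 12488 in sham rats, with overlap.

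In the cortex, 0 of 7 genes were called for injured against sham rats over the 6 times, against 0.133% of 18769 probe sets, and by limma 0 had an unadjusted p under 0.05. Cyp51 had a lowest signal of 200, a median of 2050 and a highest of 3169 in injured cortex, against 1827, 2444 and 4380 in sham cortex, with overlapping groups and a difference of -0.41 ± 0.23 (adjusted p = 0.525). Dhcr7 gave -0.27 ± 0.21 and Fdps 0.21 ± 0.15, and the other 4 lay within 0.06 of 0. Fdps was 0.07 without the 5 samples, and was called at 0.45 (adjusted p = 0.0020) without sham cortex at 14 d replicate 1, which leaves the doubted sample as the only sham one at that time.

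Fdps at 14 d was the only call at a single time in the cortex, at 1.42 ± 0.37 (adjusted p = 0.043, 4 of 4 samples). The share of all probe sets called was 0.016% at 4 h, 0.0426% at 24 h, 0.368% at 7 d, 1.81% at 14 d, 0% at 28 d and 2.47% at 3 months. It had signals of 2310, 2429, 1918 and 2039 in injured cortex, against 2208 and 271 in sham cortex. The sham sample at 271 is one of the 5 that stood apart, and without them the difference was -0.03 (adjusted p = 0.999). Leaving out injured replicate 1, 2 or 4 at 14 d or injured replicate 1 at 4 h also ended the call, with adjusted p-values from 0.050 to 0.102. Without sham cortex at 3 months replicate 2, which leaves a doubted sample alone, Sqle was called at 3 months (-0.90, adjusted p = 0.022), and without the 5 samples it was not (-0.17, adjusted p = 0.946).

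Against naive rats, 0 of 7 genes were called in injured raphe (3.05% of all probe sets; 1 of 7 with an unadjusted p under 0.05 by limma, against 16.9% of all) and 0 of 7 in injured cortex (2% of all; 1 of 7, against 16.9%). Sham against naive likewise gave 0 of 7 in the raphe and 0 of 7 in the cortex, where 0.49% of probe sets were called, with 1 of 7 under an unadjusted 0.05 in each (14.6% of all in raphe, 13.8% in cortex). At 4 h, Sqle was higher in injured than in naive cortex by 0.58 (adjusted p = 0.043, with 5.31% of probe sets called). It had 1642, 1757, 1660 and 1691 in injured cortex, against 1191, 1278, 1085 and 946 in naive cortex, without overlap, while sham cortex at 4 h had 1168 and 1526. The call was lost on leaving out any 1 of these 8 injured and naive samples (adjusted p from 0.054 to 0.140), and the type C set of Sqle gave -0.03. With quantile normalization (0.062) and with no filter (0.062) it was lost as well. With all samples kept it was the only call of a brightest set among the 12 comparisons of injured with naive rats at single times. Of the 21 other tested sets, 4 were called in raphe at 4 h (2 higher, 2 lower). In raphe at 24 h and in cortex at 4 h, 1 was called lower in each. Without the 5 samples raphe gave 4 at 4 h (3 higher), 3 at 24 h (2 higher), 4 higher at 7 d and 1 higher at 28 d. Of 18511 probe sets 1650, 1084, 1315 and 1440 were called there. Cortex gave 1 lower at 4 h and 1 lower at 28 d, beside 1492 and 434 of 18514. With the 5 samples left out, the brightest set of Fdft1 was called lower in injured than in naive raphe at 28 d, at -0.46 ± 0.13. Its adjusted p was 0.032, with 7.78% of all probe sets called, or 0.037 without injured raphe at 4 h replicate 1 alone. In raphe at 4 h, 1 of injured replicates 2, 3 or 4 left out, with replicate 1 kept, gave a call for Fdps in 3 fits and for Fdft1 and Scd2 in 2 each (without replicate 3 or 4), all lower in injured rats, with adjusted p-values from 0.020 to 0.048. None of these was called without the 5 samples (0.080 for Fdps, 0.114 for Fdft1 and 0.286 for Scd2). In raphe these called 6.24% of all probe sets at 4 h, 1.02% at 24 h, 1.19% at 7 d, 0.283% at 14 d, 1.8% at 28 d and 0.251% at 3 months. In cortex the shares after 4 h were 0.202% at 24 h, 0.33% at 7 d, 0.17% at 14 d, 0.852% at 28 d and 0.0799% at 3 months.

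Tests across time gave no call for the 7 genes. The injured minus sham difference changed over time for 0 of 7 in the raphe (0% of all probe sets) and 0 of 7 in the cortex (0.97%), with 1 of 7 under an unadjusted 0.05 by limma in each (10.5% and 17.8% of all probe sets), Fdft1 in the raphe and Fdps in the cortex. The time course of injured samples alone gave 0 of 7 in the raphe (0.486%) and 0 of 7 in the cortex (1.1%), with 2 and 1 under an unadjusted 0.05 (18.3% and 15.5% of all). The injury difference itself did not differ between raphe and cortex by test for any of the 7 (0.0206% of all), with adjusted p-values from 0.651 to 0.991 and 0 of 7 under an unadjusted 0.05 (8.49% of all). Its largest values were -0.54 for Fdps and 0.38 for Idi1. Leaving out the 5 samples, Fdps was -0.21 (-0.36 without injured raphe at 4 h replicate 1 alone) and Idi1 0.48, with 0 of 7 called (0.0156% of all) and 3 of 7, Fdft1, Idi1 and Fdps, under an unadjusted 0.05 (9.38% of all).

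No gene of the other lipid lists was called for injured against sham rats over the 6 times when all samples were kept. In each region 0 of 12 cholesterol synthesis genes, 0 of 14 fatty acid synthesis genes, 0 of 8 sterol sensing genes, 0 of 10 export genes and 0 of 12 myelin markers were called by limma. At an unadjusted p under 0.05 the counts, in the same order, were 0, 1, 1, 2 and 2 in raphe and 1, 0, 1, 2 and 1 in cortex, where 15.1% of all probe sets in raphe and 11.4% in cortex passed it. Without the 5 samples that stood apart, 2 export genes and 1 myelin marker fell in injured raphe, where 4.73% of all probe sets were called: Apoe, the main lipid carrier of the brain, at -0.27 ± 0.07 (adjusted p = 0.034), Cyp7b1, an oxysterol hydroxylase, at -0.35 ± 0.10 (adjusted p = 0.038), and the myelin protein gene Mbp at -0.28 ± 0.07 (adjusted p = 0.025). These 3 genes were chosen after their values were seen, and in cortex the lipid and myelin lists had 0 calls without the 5 samples.

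A pair of cortex samples outside the 5 were low for part of the genes, and were picked after their values were seen. In injured cortex at 24 h replicate 3, Cyp51 was 415 (others 1585 to 2179) and Dhcr7 was 359 (747 to 1286). In injured cortex at 7 d replicate 4, Cyp51 was 200 (2259 to 2354) and Dhcr7 was 222 (705 to 1051). Sqle on type A was 924 in the 24 h sample (1098 to 1517) and 1117 in the 7 d sample (1496 to 1764). The type C set of Sqle was not low, at 460 (182 to 296) and 457 (155 to 600). One type A set of Scd2 was 2747 (5379 to 7501) and 1112 (9185 to 9712). Other Scd2 sets were not low there: the brightest was 22456 (12619 to 18080) and 23195 (16063 to 24572), and another type A set was 1624 (626 to 1330) and 1766 (510 to 1197). Other probe sets of Cyp51 and Dhcr7 were low in the same samples, while Fdps at 2173 and 2302 and Fdft1 at 4039 and 4685 were like those of the other samples. Without the 7 d sample, Cyp51 passed the threshold between naive raphe and naive cortex (adjusted p = 0.0072), and likewise without the 24 h sample (0.045).

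Across samples, the correlation among the genes in the raphe rested on 1 sample, injured raphe at 4 h replicate 1. Over 38 raphe samples with all types, the 21 pairs of genes had correlations from 0.05 to 0.92 with a median of 0.40, and without the doubted samples (37 left) they ran from -0.50 to 0.50 with a median of 0.02. In cortex the median was 0.06 over 40 samples and 0.02 over 37, where Cyp51 with Dhcr7 (0.64) and Idi1 with Sqle (0.54) were the closest pairs. The mean of the 7 genes had a correlation of 0.91 with the mean of the myelin markers in raphe, and 0.38 without the doubted samples. In cortex these values were 0.47 and 0.14. The other cholesterol synthesis genes had -0.04 and 0.02 in raphe and 0.18 and -0.04 in cortex, and the other fatty acid synthesis genes 0.60 and 0.01 in raphe and 0.55 and 0.34 in cortex. Among further lists, over all raphe samples sterol sensing genes had 0.88, neuron markers 0.86 and astrocyte markers 0.84, and without the doubted samples meninges markers had -0.48. In cortex microglia markers had -0.545 with all samples and -0.49 without the doubted ones. All these values come from the same arrays and share their scaling, and are given without a test.

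The genes most like the mean of the 7 were found by the same correlation. In raphe without the doubted samples they were Asb8 (0.59), Prl5a1 (0.59), Ank3 (0.58), Amer2 (0.58) and COX3 (0.58), over 37 samples. With all 38 samples they were Ndrg4 (0.96), Gnas (0.96), Ckap5 (0.95), Apod (0.95) and Srpk2 (0.95). In cortex they were Marchf8 (0.74), Sod1 (0.73), Ndufa5 (0.72), Ndufa6 (0.72) and Ndufs6 (0.71) over 40 samples, and COX2 (0.79), Ndufa5 (0.77), Dnaja2 (0.77), Psmb2 (0.76) and Mapk6 (0.75) over 37. Only Ndufa5 stood in both cortex lists.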

How the data were processed

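The deposited values are intensity values, 1 per probe set and array on a linear scale. The authors had scaled them: the 2% trimmed mean lay between 800.5 and 801.3 on all 244 arrays. Software and settings before that step were not given in the sources used here. Groups came from the titles. A value of 32 was added before log2 was taken. Probe sets above the 40th percentile of the array on at least 4 arrays were tested (18716 in raphe, 18769 in cortex, 19453 in the fit of both). Of 26202 probe sets, 18178 had a single gene symbol, 391 several and 7633 none, and symbols were updated through gene IDs. Group means were fitted with limma 3.58.1 (R 4.3.3, statmod 1.5.0) per array type. P-values are two-sided and Benjamini-Hochberg adjusted over all probe sets of the 3 types, with a threshold of 0.05. The fit was tested on simulated data. Precision is limited by the number of arrays, above all by the 2 sham samples per time.

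The members, gene lists and tests were chosen with earlier results of these data known. All 8 members are named. From each list, up to 4 genes past the threshold with the smallest p could be named, and likeness was Pearson's r with the members' mean, the 5 highest per region. Gene groups other than those described (astrocytes, neurons, microglia, meninges, choroid plexus, vessels) were computed as well: raphe against cortex in naive rats called 2 higher and 1 lower of 8 astrocyte, 3 and 2 of 9 neuron, 0 of 9 microglia, 0 of 7 meninges, 1 higher of 4 choroid plexus and 3 higher of 7 vessel markers. Over all probe sets 6.65% were called higher and 7.59% lower there.

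Alternatives were quantile normalization, an added 1 or 128, no filter or a stricter one at the 60th percentile, array weights, the replicate number as a block, adjustment within array types, other probe sets, leaving out each sample, the 5 doubted samples, or type A arrays of injured cortex at 24 h whose description gives another time. Injured or sham samples in place of naive ones were added after seeing the data.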

Additional observations from a re-analysis of the deposited data

Results flagged for a closer look

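In groups of 4 to 10 samples, a highest or lowest sample was listed where its gap to the nearest other sample took up more of the group's range than Dixon's 95% limit allows. Chance lists about 1 in 20 groups, and 11 of 96 were listed. Injured raphe at 4 h replicate 1 accounts for 4 of them: Fdps at 120.1 (others 2682 to 3276), Sqle at 171.1 (2641 to 3337), Idi1 at 150.7 (746.7 to 905.4) and Fdft1 at 3654 (5008 to 5319). This sample had the actin ratio of 56.2.

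In the raphe, the others were Dhcr7 in injured rats at 14 d replicate 2 at 428.1 (others 1103 to 1130), Fdft1 in injured rats at 24 h replicate 2 at 7040 (5607 to 5798), Idi1 in injured rats at 24 h replicate 3 at 751.9 (1038 to 1051) and Idi1 in naive replicate 3 at 451.1 (732.5 to 797.1). In the cortex they were Cyp51 in injured rats at 7 d replicate 4 at 200.2 (2259 to 2354), Fdft1 in injured rats at 3 months replicate 4 at 4829 (4535 to 4563) and Sqle in injured rats at 3 months replicate 3 at 1209 (1078 to 1097). Their causes were not tested.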

How the results depend on the processing

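Sqle and Fdft1 were higher in naive raphe in sign under all settings run, but lost their call on second-brightest sets (adjusted p = 0.233 and 0.107). Between naive regions Cyp51 gained a call with the larger added value (adjusted p = 0.047), and Sqle at 4 h against naive cortex lost its call with quantile normalization and with no filter. Counts of calls among the 7 genes changed by over 1.5 times as follows. Injured against sham over the 6 times in raphe (0) became 2 with array weights, 1 without the doubted samples, 1 with second-brightest probe sets, and 0 to 1 on leaving out 1 sample. At each time in raphe (0) it became 1 with array weights and 1 with second-brightest sets, and stayed 0 on leaving out 1 sample. Second-brightest sets gave 1 in place of 0 for the raphe time course, raphe sham against naive and raphe injured against naive. In cortex, the 1 call at single times became 0 with array weights, the replicate block, second-brightest sets or no doubted samples, and 0 to 2 on leaving out 1 sample. The cortex time course became 1 with array weights. Leaving out 1 sample gave 0 to 1 for the cortex change over time, the cortex difference over the 6 times and cortex sham against naive, the 1 in each case without cortex sham at 14 d replicate 1. Between naive regions, 2 became 4 with array weights, 6 with injured and 5 with sham samples in place of naive ones, and 1 to 3 on leaving out 1 sample.

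Of the values of single genes under these settings, 2077 kept sign and side of the threshold, 22 gained and 23 lost a call, and 51 turned sign, as follows or by a sample left out. In raphe over the 6 times, Scd2 was 0.57 on its second-brightest set, and Sqle was -0.025 with the replicate block and -0.0084 to 0.22 on leaving out 1 sample. In cortex over the 6 times, second-brightest sets gave 0.11 for Cyp51, 0.28 for Fdft1 and -0.45 for Idi1. Without the doubted samples Fdft1 was 0.079, Idi1 -0.0055 and Scd2 0.0071, and Scd2 was 0.0079 after quantile normalization. Without the arrays of conflicting time Idi1 was -0.053 and Sqle -0.012. Leaving out 1 sample gave -0.096 to 0.036 for Fdft1, -0.027 to 0.45 for Fdps, -0.072 to 0.0815 for Idi1, -0.19 to 0.082 for Scd2 and -0.035 to 0.086 for Sqle. Between naive regions, Idi1 was -0.59 on its second set and Scd2 -0.21 in injured rats. For the injury effect between regions, Cyp51 was -0.21 and Scd2 0.82 on second sets, and Sqle was -0.0003396 after quantile normalization and -0.034 to 0.19 on leaving out 1 sample. Fdps at 14 d in cortex was -0.028 without the doubted samples and -0.028 to 2.86 on leaving out 1 sample. Sqle at 4 h against naive cortex was -0.031 on its second set. The causes were not tested.

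Within a region, replicate numbers did not link samples of different groups: on type A, same-numbered ones had a mean correlation of deviations of -0.0017 in raphe and 0.02 in cortex. Different groups differ in treatment or time, so this cannot show whether raphe and cortex samples of the same number came from the same rat. That was not checked, and the fit of both regions treated them as independent. With the replicate block, 0 of 7 genes were called over the 6 times in raphe. The few sham samples per time and the added 32, which draws weak signals together, limit what can be seen.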
